A study of Mus musculus with 4 samples.

Results

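The glucocorticoid receptor target genes described here were 10 genes taken by symbol from the 32285 genes of the files, namely Fkbp5, Tsc22d3, Zbtb16, Sgk1, Klf9, Klf15, Cebpd, Nfkbia, Errfi1 and Nr3c1, the last of which encodes the receptor itself. Their transcripts were counted as unique molecular identifiers (UMIs, 1 per captured molecule) summed over all barcodes of a library and given as counts per 1000000 UMIs of that library (CPM). All 10 were found, and all 10 had at least 20 UMIs over both libraries of each of the 4 comparisons, the minimum set for a ratio.

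The glucocorticoid receptor is a hormone-activated transcription factor that waits in the cytoplasm in a complex with heat shock proteins and immunophilins. Corticosterone, the main glucocorticoid of mice, releases it to enter the nucleus, where it binds DNA elements built from inverted repeats of a short half-site and raises transcription of nearby genes, while at many inflammatory genes it lowers transcription. In heart muscle its targets include genes of metabolism, ion transport, protein turnover and the circadian clock, and several targets feed back on the receptor or on other signalling pathways.

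The libraries came from left ventricle of male C57BL/6J wildtype mice, young (3 to 5 months) or aged (24 to 26 months), after a sham operation or after ischemia/reperfusion (I/R), in which the left anterior descending coronary artery was closed for 45 min and the heart reperfused for 24 h. Each of these 4 conditions, sham and I/R in young and in aged mice, had 1 library, and neither the labels nor the methods used here gave the number of mice behind a library. Nuclear RNA and healthy tissue were the labels' terms where the methods gave single-cell suspensions and sham operations. With 1 library per condition, no difference between conditions had a replicate check and none was tested, and every interval printed is a 95% interval for counting error only.

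Total UMIs were 25836175 (sham) and 39673199 (I/R) for young ventricle and 41356670 (sham) and 66767829 (I/R) for aged ventricle, over 91124 to 102883 barcodes with a median of 244 to 675 UMIs each. RNA composition differed between libraries as well. Gm42418 took 19.4% of UMIs in young I/R and 11.5% to 14.0% elsewhere, Malat1 7.34% in young sham and 2.22% to 4.33% elsewhere, and mitochondrial genes between 9.98% (aged I/R) and 15.6% (aged sham), and from 28.4% (young sham) to 98.8% (aged I/R) of barcodes had at least 200 detected genes. The part of these differences in the ratios below was not tested beyond the alternative totals and barcode limits given at the end. Between 7.44% and 7.92% of a library's barcode sequences also occurred in another library, and leaving these barcodes out changed the direction of none of the 40 ratios of the 10 genes. Cardiomyocyte markers were high in all 4 libraries (the 8 check markers summed to 14157 to 15944 CPM, with none at 0), as the labelled tissue calls for. In sums over a whole library, fewer cells of a type and less RNA per cell cannot be told apart.

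The receptor's best known DNA element was searched for in RefSeq promoters of build GRCm38.p6, 300 bases each from 250 before to 50 after an annotated start, to show which members hold it next to a start. The strict palindrome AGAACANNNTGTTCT, read on both strands, occurred in 3 of 32851 promoters (0.00913%), the looser GNACANNNTGTNC in 156 (0.475%, the strict matches included), and the half-site AGAACA alone, on either strand, in 6233 (19.0%). Counted by gene, since a gene can have several promoters, the 3 patterns occurred in 0.0111%, 0.537% and 21.3% of 27025 genes. Promoters were matched for 7 of the 10 genes, and Zbtb16, Cebpd and Nr3c1 were not matched. Of these 7, Sgk1 held the strict palindrome, in 1 of its 6 promoters, with its first base 189 bases before the start (position -189), and Tsc22d3 held a lone half-site at -185 in 1 of its 3 promoters. No match to any of the 3 patterns was found in the promoters of Fkbp5, Klf9, Klf15, Nfkbia and Errfi1. Only these 300-base windows were searched, so a gene without a match may still hold elements farther from its start. The 250 bases before the start are shown for Sgk1 as the member with the palindrome (chr10:21993640-21993889, plus strand, capitals mark the palindrome), for Tsc22d3 as the one with a lone half-site (chrX:140600523-140600772, minus strand, capitals mark the half-site) and for Fkbp5, the member with the highest I/R over sham ratio in both ages (chr17:28486150-28486399, minus strand, no match).
Sgk1: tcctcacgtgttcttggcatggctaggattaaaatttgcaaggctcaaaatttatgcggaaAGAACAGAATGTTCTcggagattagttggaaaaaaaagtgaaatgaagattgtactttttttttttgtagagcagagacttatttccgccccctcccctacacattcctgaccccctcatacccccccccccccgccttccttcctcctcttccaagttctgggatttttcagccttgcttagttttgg
Tsc22d3: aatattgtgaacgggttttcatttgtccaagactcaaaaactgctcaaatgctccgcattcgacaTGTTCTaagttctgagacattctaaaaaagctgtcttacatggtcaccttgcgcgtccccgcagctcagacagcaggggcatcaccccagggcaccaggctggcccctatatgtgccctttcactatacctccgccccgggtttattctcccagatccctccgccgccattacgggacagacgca
Fkbp5: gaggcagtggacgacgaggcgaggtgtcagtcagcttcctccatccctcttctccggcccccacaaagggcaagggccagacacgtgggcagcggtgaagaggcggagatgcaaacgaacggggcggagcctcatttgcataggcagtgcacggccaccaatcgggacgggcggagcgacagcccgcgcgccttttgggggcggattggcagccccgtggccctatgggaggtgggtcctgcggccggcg

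In the same Sgk1 promoter a further half-site lay at -242, and 2 of its other promoters held 1 each, at -195 and at -13. A match is a run of letters in the window and not a measured binding site, and the libraries, which count transcripts near their 3′ ends, cannot show which of the starts was used. Among 30 further genes known as glucocorticoid-induced, 27 had a promoter in the set. None held the strict palindrome, and 2 held the looser one: Mt1, a metal-binding metallothionein, with GGACATGATGTTC at -94 (start window chr8:94178839-94179138), and Map3k6, a stress kinase, with GCACAGGCTGTTC at -181 (chr4:133240568-133240867). A half-site was held by 4 of the 27, beside 21.3% of all genes with a promoter.

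After I/R, Fkbp5 and Cebpd were at least 2-fold higher in both ages, Nfkbia in young ventricle and Zbtb16 in aged ventricle, and no member was 2-fold lower in either age. Young I/R thus held 3 of 10 members at least 2-fold higher over young sham, against 3.26% of the 15465 genes with enough UMIs, and 0 of 10 at least 2-fold lower, against 27.0%. Aged I/R also held 3 of 10 higher over aged sham, against 5.65% of 16761 genes, and 0 lower, against 3.02%. The median log2 ratio of the 10 genes was 0.83 in young and 0.50 in aged ventricle, beside -0.51 and 0.09 for all genes. The 10 genes and all lists below were chosen with earlier results of these data known. A count above the share of all genes is thus no independent evidence about a list.

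**Figure D1:**
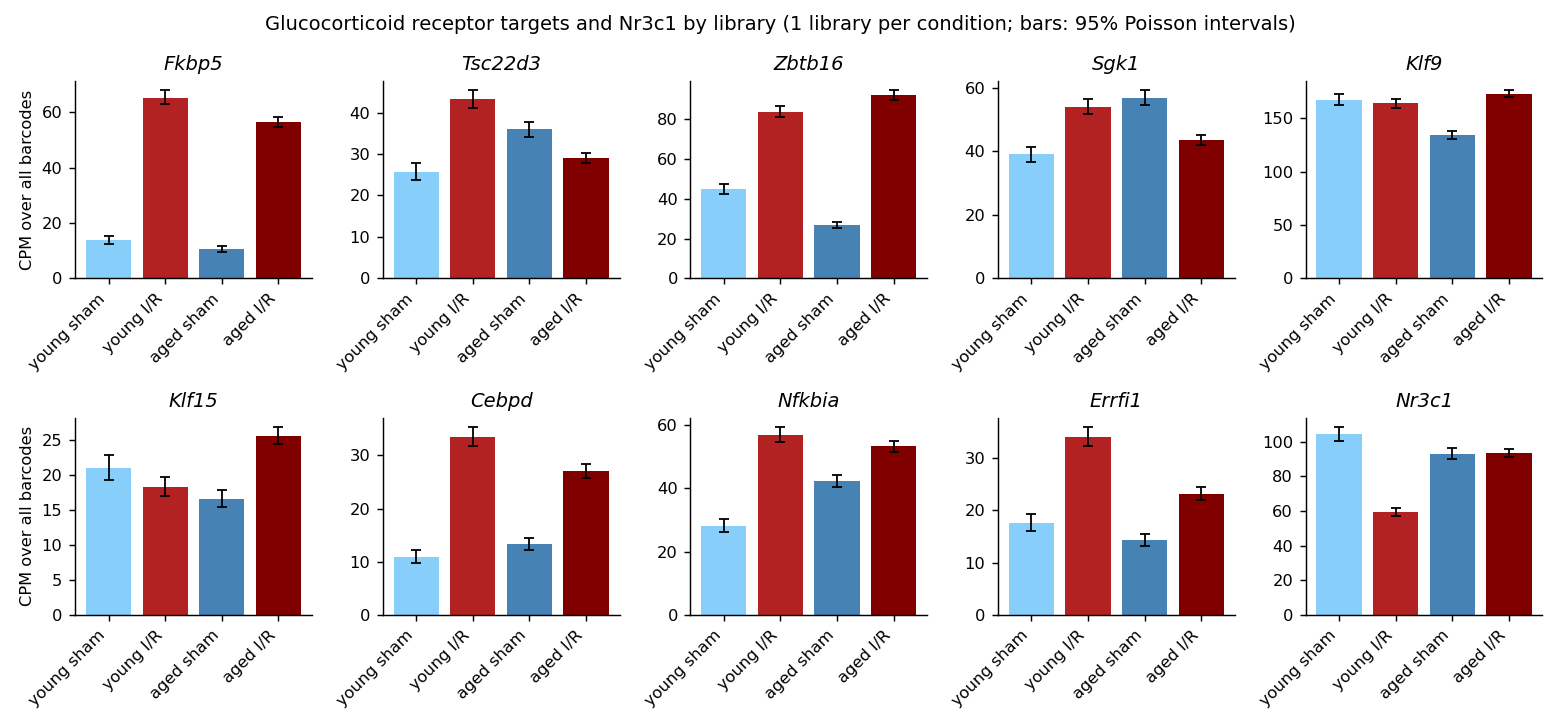
Level of each of the 10 genes in the 4 libraries, in CPM over all barcodes on a linear axis that starts at 0, with exact 95% Poisson intervals that cover counting error only. Fkbp5 stood at 65.3 and 56.3 CPM in the I/R libraries and at 13.9 and 10.6 in the sham libraries, while Klf9 stayed between 134 and 173 and Nr3c1 was lowest in young I/R at 59.5.

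Scaling moved these values. Scaling by the median of gene-wise ratios raised the log2 ratios by 0.47 in the young I/R and by 0.15 in the sham age comparison, and lowered them by 0.09 in the aged I/R and by 0.41 in the I/R age comparison. In young I/R the share of all genes 2-fold higher and lower then went to 7.02% and 13.2%, and 6 of 10 members were 2-fold higher (Zbtb16, Errfi1 and Tsc22d3 beside Fkbp5, Cebpd and Nfkbia); in aged I/R the shares went to 4.61% and 3.77%, and 2 members were higher, without Cebpd. A gene's rank among all genes is the same under either scaling, and 9 of 10 members ranked above the median gene in young I/R and 7 of 10 in aged I/R.

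Fkbp5 encodes FKBP51, an immunophilin that joins the receptor complex and lowers its affinity for hormone, and the gene is among the most used readouts of receptor activity. It was at 13.9 (sham) and 65.3 CPM (I/R) among young libraries and 10.6 (sham) and 56.3 CPM (I/R) among aged ones, so both I/R libraries were high, both sham libraries were low and none of the 4 intervals overlapped. The log2 ratio, I/R over sham, was 2.23 (2.07 to 2.39) in young and 2.41 (2.27 to 2.55) in aged ventricle, or 4.69-fold and 5.31-fold. Among all genes these ratios ranked at percentile 99.1 and 99.5. Fkbp5 (ENSMUSG00000024222) lies on the minus strand of chromosome 17 at 28399094 to 28517527 of GRCm38, where AC154912.5 on the same strand and AC154912.1 on the other overlap it. Its value is uncertain to the extent that reads were shared with these genes, since use of the strand in counting is not given in the sources used here, and the same holds for Cebpd and Errfi1.

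Tsc22d3 encodes GILZ, a leucine zipper protein that binds and restrains NF-κB and AP-1. It was at 25.7 CPM (sham) and 43.2 CPM (I/R) in young ventricle and 36.0 and 29.0 CPM in aged ventricle. Young I/R was thus the highest library and aged I/R lay below aged sham. The log2 ratio was 0.75 (0.62 to 0.88) in young and -0.31 (-0.41 to -0.21) in aged ventricle, neither of them 2-fold, at percentiles 95.3 and 21.4 of all genes. The gene (ENSMUSG00000031431) occupies 140539528 to 140600659 on the minus strand of chromosome X.

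Zbtb16 encodes the zinc finger transcription factor PLZF. Its level was 44.7 (sham) and 83.7 CPM (I/R) among young libraries and 26.9 (sham) and 92.0 CPM (I/R) among aged ones, so that aged ventricle held both the lowest and the highest library. I/R libraries over sham libraries gave a log2 ratio of 0.904 (0.807 to 1.002) in young, 1.87-fold and so just under the 2-fold limit, and 1.77 (1.68 to 1.87) in aged ventricle, or 3.42-fold. These were percentiles 96.3 and 98.6 of all genes. Zbtb16 (ENSMUSG00000066687) spans 48654297 to 48836222 on the minus strand of chromosome 9.

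Cebpd encodes C/EBPδ, a transcription factor of the acute phase and of fat cell formation. The 4 libraries gave 11.0 CPM (sham) and 33.4 CPM (I/R) in young ventricle and 13.3 and 27.0 CPM in aged ventricle. Both I/R libraries lay above both sham libraries, and the intervals of the sham libraries overlapped. I/R over sham came to 3.05-fold (log2 1.61, 1.42 to 1.80) in young and 2.03-fold (log2 1.02, 0.88 to 1.16) in aged ventricle. The interval in aged ventricle includes values under 2-fold. Cebpd (ENSMUSG00000071637), on the plus strand of chromosome 16 at 15887286 to 15891031, overlaps Spidr on the other strand.

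Klf9 and Klf15 encode Krüppel-like transcription factors, Klf9 also a clock-linked target and Klf15 a regulator of amino acid and lipid use in muscle. Klf9 was at 168 (sham) and 164 CPM (I/R) among young libraries and 134 (sham) and 173 CPM (I/R) among aged ones. Only aged sham stood apart, since the interval of young sham overlapped those of both I/R libraries. Klf15 was at 21.1 and 18.3 CPM in the young and 16.6 and 25.6 CPM in the aged pair, highest in aged I/R, and the interval of young I/R overlapped those of both sham libraries. I/R over sham gave log2 ratios of -0.03 (-0.08 to 0.03) for Klf9 and -0.20 (-0.36 to -0.04) for Klf15 in young and 0.37 (0.32 to 0.41) and 0.63 (0.50 to 0.75) in aged ventricle. Under gene-wise scaling the young ratios of both turned positive, to 0.44 and 0.27. Klf9 (ENSMUSG00000033863) lies on chromosome 19 at 23141226 to 23168134 and Klf15 (ENSMUSG00000030087) on chromosome 6 at 90462576 to 90475238, both on the plus strand.

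Sgk1 encodes a serum- and glucocorticoid-regulated kinase that acts on ion channels and transporters. It was at 39.1 CPM (sham) and 54.1 CPM (I/R) in young ventricle and 56.9 and 43.6 CPM in aged ventricle. The intervals of young I/R and aged sham overlapped at the top of this order, and young sham was the lowest. I/R over sham gave a log2 ratio of 0.47 (0.36 to 0.58) in young and -0.39 (-0.46 to -0.31) in aged ventricle, neither of them 2-fold. Under gene-wise scaling the young ratio was 0.94 (0.83 to 1.05), an interval that includes 2-fold, and the aged ratio was -0.48. A link between the palindrome shown above and these ratios was not tested. Sgk1 (ENSMUSG00000019970) is annotated on the plus strand of chromosome 10 from 21882184 to 21999903.

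Errfi1 encodes MIG6, an inhibitor of the EGF receptor family. It was at 17.5 (sham) and 33.9 CPM (I/R) among young libraries and 14.2 (sham) and 23.1 CPM (I/R) among aged ones, with both I/R libraries above both sham libraries and no overlap between intervals. I/R over sham was 1.94-fold in young (log2 0.96, 0.80 to 1.11) and 1.63-fold in aged ventricle (log2 0.70, 0.56 to 0.84). Errfi1 (ENSMUSG00000028967) lies on the plus strand of chromosome 4 at 150853919 to 150868892, where 1700045H11Rik overlaps it on the other strand.

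Nfkbia encodes IκBα, which holds NF-κB in the cytoplasm and is induced by NF-κB as well as by glucocorticoid. Its level was 28.2 CPM (sham) and 56.9 CPM (I/R) in young ventricle and 42.3 and 53.2 CPM in aged ventricle. Young sham was lowest, and the intervals of the I/R libraries overlapped. The log2 ratio, I/R over sham, was 1.01 (0.89 to 1.13) in young, an interval that includes values under 2-fold, and 0.33 (0.25 to 0.42) in aged ventricle. Nfkbia (ENSMUSG00000021025) is a short gene on the minus strand of chromosome 12, at 55489410 to 55492647.

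**Figure D2:**
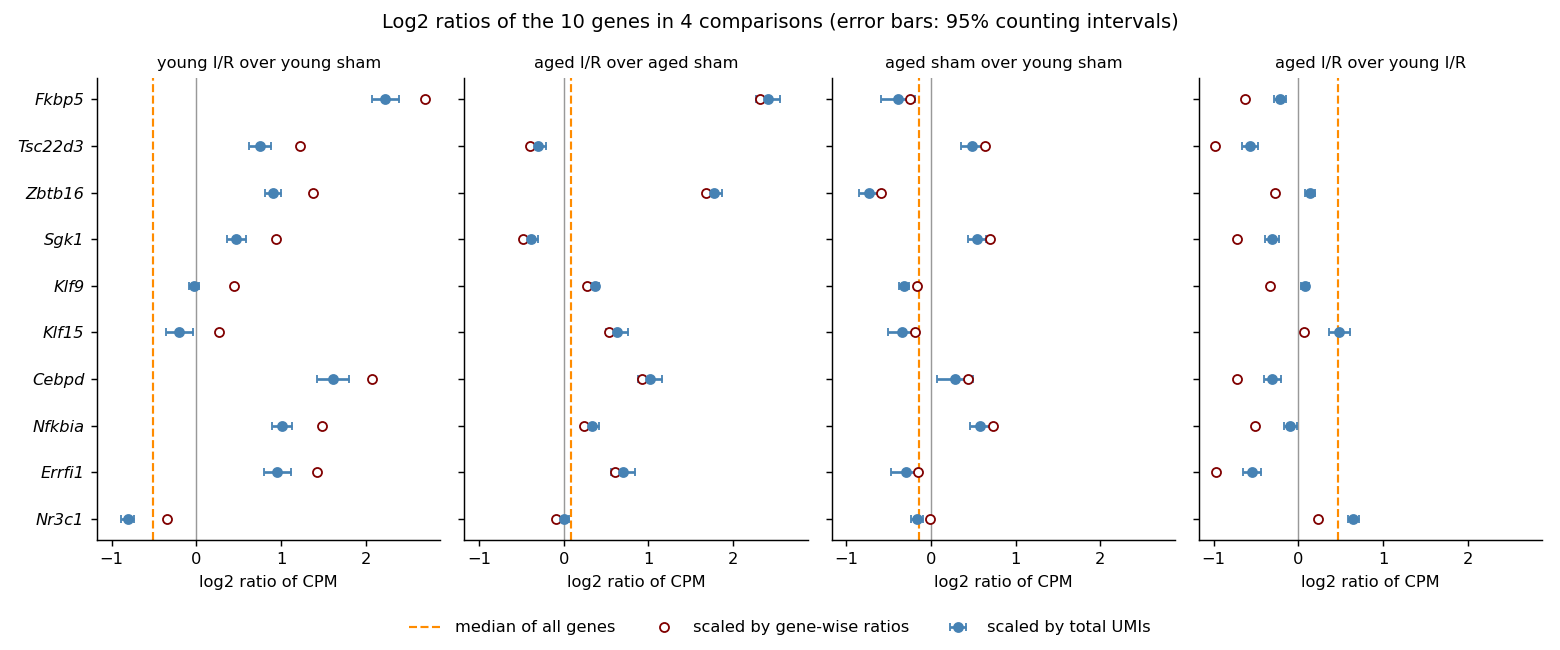
Log2 ratios of CPM for the 10 genes in the 4 comparisons, filled points scaled by total UMIs with 95% counting intervals, open points scaled by gene-wise ratios, and a dashed line at the median of all genes. Fkbp5 is farthest to the right in both I/R over sham panels (2.23 and 2.41), and in aged over young I/R no filled point but those of Nr3c1 (0.65) and Klf15 (0.48) lies right of the dashed line at 0.47.

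Nr3c1, the receptor gene, was at 104 (sham) and 59.5 CPM (I/R) among young libraries and 93.2 (sham) and 93.3 CPM (I/R) among aged ones. Young I/R was the low library and the aged libraries did not differ beyond counting error. I/R libraries over sham libraries gave a log2 ratio of -0.81 (-0.89 to -0.73) in young, 0.569-fold and so short of the 2-fold limit, and 0.00 (-0.06 to 0.06) in aged ventricle. The young ratio lay at percentile 35.1 of all genes, below the median gene, and under gene-wise scaling it was -0.34, while the aged ratio was -0.09. The gene (ENSMUSG00000024431) is on the minus strand of chromosome 18.

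**Figure D3:**
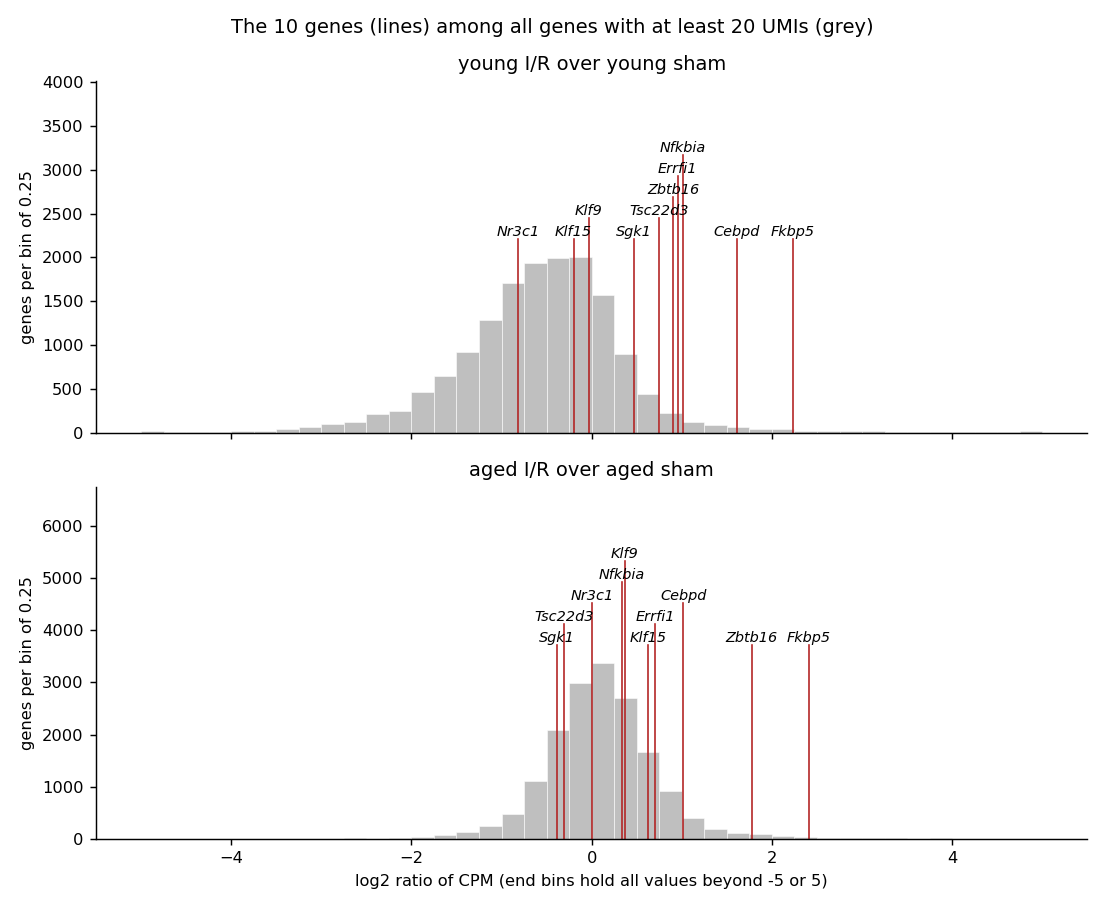
Number of genes per bin of 0.25 in the log2 ratio of I/R over sham CPM (grey bars) with the 10 genes as labelled lines, young ventricle above and aged ventricle below, on scaling by total UMIs. In young ventricle the bulk of genes lies left of 0 (median -0.51) with 9 of 10 members right of that median, and in aged ventricle the bulk is near 0 (median 0.09) with 7 of 10 members right of it.

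No member passed 2-fold in either age comparison. Each of these shares its libraries with the I/R comparisons, so the 4 sets of ratios are not independent. In aged over young sham 0 of 10 were higher, against 3.48% of 15875 genes, and 0 were lower, against 7.21%. Zbtb16 had the lowest log2 ratio at -0.73 (-0.85 to -0.61) and Nfkbia the highest at 0.58 (0.46 to 0.71), next to Sgk1 at 0.54 and Tsc22d3 at 0.48. The median was -0.23 beside -0.14 for all genes. Fkbp5 was lower in aged sham by a log2 ratio of -0.39, Klf15 by -0.34, Klf9 by -0.32, Errfi1 by -0.30 and Nr3c1 by -0.16, and Cebpd was higher by 0.29.

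In aged over young I/R again 0 of 10 were 2-fold higher, against 21.3% of 16491 genes, and 0 were 2-fold lower, against 1.58%. The median log2 ratio of the members was -0.15, beside 0.47 for all genes, and 2 of 10 ranked above the median gene. Tsc22d3 was lowest at -0.58 (-0.67 to -0.48), at percentile 4.50 of all genes, and Errfi1 followed at -0.55, at percentile 4.76. Sgk1 was at -0.31, Cebpd at -0.31, Fkbp5 at -0.21 and Nfkbia at -0.09. Klf9 at 0.08 and Zbtb16 at 0.14 changed sign under gene-wise scaling, to -0.34 and -0.28. Klf15 at 0.48 and Nr3c1 at 0.65 (0.58 to 0.72) stayed above 0, at 0.07 and 0.24. Under gene-wise scaling the shares of all genes were 10.7% higher and 4.38% lower, and no member passed 2-fold. Tsc22d3 at -0.99 (-1.08 to -0.90) and Errfi1 at -0.97 (-1.07 to -0.86) were then just short of it, with intervals that include it.

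The I/R response was then set side by side between ages, as the aged log2 ratio minus the young one, a difference over all 4 libraries that could not be tested. It was above 0 beyond counting error for 4 members, namely Zbtb16 (0.87), Klf15 (0.83), Nr3c1 (0.81) and Klf9 (0.40). It was below 0 for 5, namely Tsc22d3 (-1.06, -1.22 to -0.90), Sgk1 (-0.86), Nfkbia (-0.68), Cebpd (-0.59) and Errfi1 (-0.25). For Fkbp5 the interval of the difference, 0.18 (-0.03 to 0.39), included 0. The shares of all genes above and below 0 were not counted for this difference. The median I/R over sham ratio of all genes was itself lower in young (-0.51) than in aged ventricle (0.09), so a difference above 0 is not particular to these members. Gene-wise scaling lowered every difference by the same amount and left 3 above 0 (Zbtb16 at 0.31, Klf15 at 0.26 and Nr3c1 at 0.25) and 7 below, with Fkbp5 at -0.38 and Klf9 at -0.17. Tsc22d3 and Sgk1 were higher after I/R in young and lower in aged ventricle under both scalings.

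**Figure D4:**
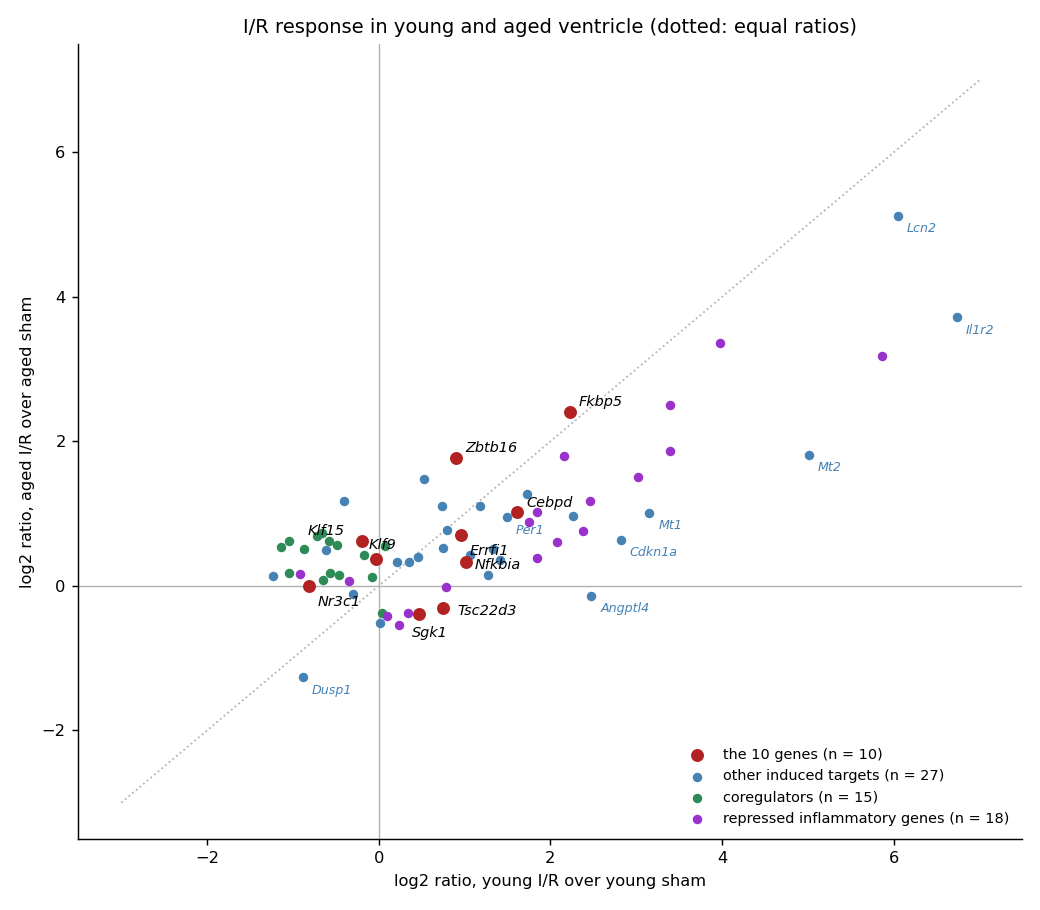
Log2 ratio of I/R over sham CPM in young (x axis) against aged ventricle (y axis), 1 point per gene, for the 10 genes, 27 other induced targets, 15 coregulators and 18 inflammatory genes with enough UMIs in both, with a dotted line of equal ratios. Fkbp5 lies near the dotted line at 2.23 and 2.41, and Zbtb16 lies above it. Mt2, Il1r2, Cxcl5, Angptl4, Cdkn1a and Mt1 lie far below the line.

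Proteins that fold, carry or feed the receptor were listed as 15 genes, of which 14 had enough UMIs in every comparison. In young I/R 0 were 2-fold higher and 1 was lower, in aged I/R 0 and 0, in aged over young sham 0 and 1, and in aged over young I/R 1 and 0, and each of these calls was Nr3c2. Over all genes the higher and lower shares in the same order were 3.26% and 27.0%, 5.65% and 3.02%, 3.48% and 7.21%, and 21.3% and 1.58%. The medians were 0.05, 0.13, -0.02 and 0.00. Nr3c2 encodes the mineralocorticoid receptor, which binds corticosterone as well. It was at 31.8 CPM (sham) and 6.81 CPM (I/R) in young ventricle and 14.5 and 15.7 CPM in aged ventricle. Young sham was thus high and young I/R low, with the aged libraries between them. It fell by 2.22 (log2) after I/R in young ventricle, and the ratio was 0.11 (-0.03 to 0.26) in aged ventricle. Its aged over young sham ratio of -1.13 was -0.98 under gene-wise scaling, and its aged over young I/R ratio of 1.21 was 0.79, both then short of 2-fold, and in young I/R Hspa8 (1.19) and Hsp90aa1 (1.11) were then past 2-fold.

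Hsd11b1 encodes the enzyme that regenerates active glucocorticoid within cells. It was at 7.08 (sham) and 6.96 CPM (I/R) among young libraries and 9.99 (sham) and 11.9 CPM (I/R) among aged ones, so the aged libraries were the higher ones. Aged over young was 0.50 (0.24 to 0.75) in sham and 0.78 (0.58 to 0.98) in I/R libraries. The chaperones Hspa8 and Hsp90aa1 had the highest ratios of the list in young I/R, 0.72 and 0.64, and Ppp5c, a phosphatase of the complex, was at -0.52. In aged I/R Hsp90ab1 (0.93) and Hspa4 (0.50) led, and Stub1 (-0.42) and Fkbp4 (-0.30), the immunophilin that competes with FKBP51, were lowest. Fkbp4 was also low in aged over young libraries, at -0.46 in sham and -0.38 in I/R, where Hspa8 was at -0.51. Ptges3, the p23 cochaperone, was at 0.29 in aged over young sham.

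Coregulators, which the DNA-bound receptor recruits, were listed as 15 genes, all with enough UMIs. In young I/R 0 were 2-fold higher and 3 lower, in aged I/R 0 and 0, in aged over young sham 0 and 0, and in aged over young I/R 2 and 0. Neither the 3 of 15 lower in young I/R, beside 27.0% of all genes, nor the 2 of 15 higher in aged over young I/R, beside 21.3%, was above the share over all genes. The medians were -0.57, 0.51, -0.48 and 0.59, of the same sign as the median of all genes in each comparison. Ncoa2 (GRIP1), a coactivator and corepressor of the receptor, was at 53.3 CPM (sham) and 24.2 CPM (I/R) in young ventricle and 36.6 and 53.2 CPM in aged ventricle. Young I/R was its lowest library. Ncoa1 and Ncoa2, the coactivators SRC-1 and GRIP1, and Nrip1, a corepressor also called RIP140, fell in young I/R by 1.04, 1.14 and 1.05 on the log2 scale and were at 0.62, 0.54 and 0.18 in aged I/R. None of the 3 passed 2-fold under gene-wise scaling. Smarca4 (0.07) and Trim28 (0.04) were highest in young I/R. Ncor1 (0.73) and Ppargc1a (0.69) were highest and Trim28 (-0.37) and Ncoa3 (0.08) lowest in aged I/R. In aged over young sham the range ran from Nrip1 (-0.79) and Med1 (-0.69) to Smarca4 (-0.01) and Trim28 (0.09), and in aged over young I/R from Trim28 (-0.32) and Carm1 (0.12) to Ncoa1 (1.09) and Ncoa2 (1.14).

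A further 30 genes known as glucocorticoid-induced in other tissues gave 27 with enough UMIs in young I/R, of which 14 were 2-fold higher and 1 lower, with a median of 1.06, against the 3.26% and 27.0% of all genes given above. In aged I/R 9 of 27 were higher and 1 lower, with a median of 0.53, against 5.65% and 3.02%. Under gene-wise scaling 17 were higher and 0 lower in young I/R, against 7.02% and 13.2% of all genes. In aged I/R 8 were higher and 1 lower on that scaling, against 4.61% and 3.77%. Of 26 in aged over young sham 0 passed in either direction (median -0.02), against 3.48% higher and 7.21% lower over all genes. In aged over young I/R 0 of 27 were higher and 5 lower (median -0.46), against 21.3% and 1.58%. The count of lower genes there went to 11 under gene-wise scaling, against 4.38% of all genes. Tat, Pck1 and G6pc, enzymes of liver metabolism, had at most 6 UMIs in any library and no ratio. This list too was chosen with earlier results of these data known.

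Lcn2, an iron-carrier-binding protein of the acute phase, rose in both ages. It was at 1.51 (sham) and 99.8 CPM (I/R) among young libraries and 2.08 (sham) and 72.6 CPM (I/R) among aged ones, with log2 ratios of 6.05 (5.59 to 6.54) and 5.13 (4.82 to 5.45). Il1r2, the decoy receptor for interleukin-1, had 2 UMIs in young sham against 327 in young I/R (log2 6.73, 4.87 to 9.79) and 14 in aged sham against 297 in aged I/R (log2 3.72, 2.95 to 4.60). Both genes are also expressed by neutrophils, for which no marker list was summed.

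The metallothionein Mt2 was at 23.0 CPM (sham) and 742 CPM (I/R) in young ventricle and 27.7 and 97.5 CPM in aged ventricle. It rose in both ages, by 5.01 and 1.82 on the log2 scale, and was lower in aged than in young I/R by -2.93 (-2.97 to -2.89). Angptl4, an inhibitor of lipoprotein lipase, was at 11.0 (sham) and 61.4 CPM (I/R) among young libraries and 5.59 (sham) and 5.09 CPM (I/R) among aged ones. Young I/R stood alone, and aged over young I/R was -3.59 (-3.76 to -3.43). Mt1 and the cell cycle inhibitor Cdkn1a were also over 2-fold lower in aged than in young I/R, at -2.19 and -1.51. The same held for Ddit4, an inhibitor of mTOR signalling, at -1.21. Mt1 and Cdkn1a were named for this comparison after their values were seen.

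Dusp1, a MAP kinase phosphatase induced by stress and by glucocorticoid, was lower after I/R. Its level was 49.2 CPM (sham) and 26.6 CPM (I/R) in young ventricle and 47.0 and 19.5 CPM in aged ventricle, with both I/R libraries below both sham libraries. The log2 ratio was -0.89 (-1.01 to -0.77) in young, short of 2-fold, and it fell by 1.26 (-1.37 to -1.16) in aged ventricle. Cdkn1c, another cell cycle inhibitor, fell by 1.23 in young I/R and was at -0.73 in aged over young sham, where Angptl4 (-0.98) was lowest and Cdkn1a (0.67) and Lcn2 (0.46, -0.10 to 1.05) highest. Bcl6, a transcriptional repressor, was at -0.52 in aged I/R. Cd163 (0.91) and Mertk (0.74), both macrophage receptors, had the highest ratios in aged over young I/R, beside macrophage check markers that summed to 65.1 CPM in young and 115 in aged I/R.

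Genes of muscle protein breakdown and the FoxO factors were listed as 10, of which 9 had enough UMIs in young I/R and 10 in the other comparisons. In young I/R 1 was 2-fold higher (Slc7a5, an amino acid transporter, at 1.48) and 0 lower, with a median of 0.27, and in aged I/R 0 and 0, with a median of -0.04. Aged over young sham had 1 higher and 0 lower (median 0.02), and in aged over young I/R 1 was higher and 1, Slc7a5 at -1.05, lower (median 0.08). The shares over all genes were 3.26% and 27.0% in young I/R, 5.65% and 3.02% in aged I/R, 3.48% and 7.21% in aged over young sham and 21.3% and 1.58% in aged over young I/R. Under gene-wise scaling 3 were higher in young I/R (Slc7a5, Bnip3 and Fbxo31), 2 in aged over young sham and 0 in aged over young I/R, where 2 were lower. The gene-wise shares of all genes were 7.02% higher in young I/R and 4.73% higher in aged over young sham. For aged over young I/R they were 10.7% higher and 4.38% lower. The higher gene in both age comparisons was Mstn, myostatin, which had 3 (sham) and 9 UMIs (I/R) in young and 17 and 32 UMIs in aged ventricle, with log2 ratios of 1.82 (0.03 to 4.24) and 1.08 (-0.02 to 2.33). Bnip3, a mitophagy receptor, was at 73.6 (sham) and 134 CPM (I/R) among young libraries and 120.4 (sham) and 174 CPM (I/R) among aged ones, with log2 ratios of 0.86 in young I/R, 0.53 in aged I/R, 0.71 in aged over young sham and 0.38 in aged over young I/R, the first of which was 1.33 under gene-wise scaling and so past 2-fold. The muscle ubiquitin ligase gene Trim63 was at -0.30 in aged over young sham. Foxo1 (-0.48) and Fbxo21 (-0.69) were lowest in young I/R, and Fbxo21 was at -0.23 in aged over young sham and 0.42 in aged over young I/R. In aged I/R Fbxo31 was at 0.46, Gadd45a at -0.59 and Slc7a5 at -0.43, and Gadd45a was at -0.83 in aged over young I/R and Slc7a5 at 0.86 in aged over young sham.

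Among inflammatory genes that glucocorticoid is known to lower, none fell 2-fold after I/R and more rose in young than in aged ventricle, a difference that was not tested. Of 20 listed, 19 had enough UMIs in young I/R and 13 were 2-fold higher with 0 lower (median 2.08), beside 3.26% and 27.0% of all genes, and of 18 in aged I/R 8 were higher with 0 lower (median 0.82), beside 5.65% and 3.02%. Aged over young sham held 4 of 16 higher with 0 lower (median 0.79), beside 3.48% and 7.21%, and in aged over young I/R 3 of 19 were higher and 4 lower (median -0.32), beside 21.3% and 1.58%. The count in young I/R includes Csf3, with 0 UMIs in young sham and 23 in young I/R, which was at least 4.99-fold higher against a floor of 3 counts in young sham. These inflammatory genes were also listed with earlier results of these data known.

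Cxcl5, a chemokine that draws neutrophils, was at 0.503 CPM (sham) and 29.4 CPM (I/R) in young ventricle and 1.55 and 14.0 CPM in aged ventricle. It rose in both ages, by 5.87 (5.09 to 6.78) and 3.18 (2.81 to 3.57), and was at 1.62 in aged over young sham and -1.07 in aged over young I/R. Cxcl2, of the same family, rose by 3.98 and 3.36. Nos2 (-0.91) and Vcam1 (-0.34) had the lowest ratios in young I/R, and Icam1 (-0.54) and Tnf (-0.42, -0.97 to 0.13) in aged I/R. Mmp3, a matrix protease, was at 5.73 (sham) and 19.2 CPM (I/R) in young and 22.2 and 41.0 CPM in aged ventricle, 2-fold higher in aged over young sham (1.95) and, with Vcam1 (1.16), in aged over young I/R (1.09). Ccl4 (0.39, -0.43 to 1.27) and Nos2 (-0.01, -0.48 to 0.46) were lowest in aged over young sham, and Il6 was 2-fold lower in aged over young I/R at -1.57. Under gene-wise scaling 14 genes of this list were 2-fold higher in young I/R and 7 in aged I/R, and in aged over young I/R 0 were higher and 9 lower. Over all genes the gene-wise shares were 7.02% higher in young I/R and 4.61% higher in aged I/R. For aged over young I/R they were 10.7% higher and 4.38% lower.

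Marker sums of cell types moved as well, and their part in the ratios above was not tested. The 8 cardiomyocyte check markers had log2 ratios, I/R over sham, of 0.03 (young) and -0.17 (aged). The 8 endothelial check markers summed to 582 (sham) and 461 CPM (I/R) in young and 623 and 611 CPM in aged ventricle, a ratio of -0.34 and -0.03, and the 8 fibroblast check markers to 385 and 185 CPM and to 392 and 316 CPM, a ratio of -1.06 and -0.31. The 8 macrophage check markers summed to 98.4 and 65.1 CPM and to 150.3 and 115 CPM, a ratio of -0.59 and -0.39. None of these markers was at 0 in any library. The lists did not all move alike. The 12 endothelial gate markers, used to sort barcodes below, summed to 2225 (sham) and 2682 CPM (I/R) in young and 2628 and 2450 CPM in aged ventricle, ratios of 0.27, with 6 of 12 genes higher, and -0.10. The 12 fibroblast gate markers had ratios of -0.28 and -0.42 and the 12 macrophage gate markers of -0.45 and -0.26. Of the 8 macrophage check markers, 4 were higher in young I/R.

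Gene-wise scaling turned several of the young ratios, to 0.13 for the endothelial check, 0.18 for the fibroblast gate and 0.02 for the macrophage gate sum. The cardiomyocyte check sum was then at 0.50 in young and -0.26 in aged ventricle, and the endothelial gate sum at 0.74 and -0.19. The fibroblast check sum (-0.59 in young and -0.40 in aged) and the macrophage check sum (-0.13 and -0.48) were below 0 under both scalings.

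The members were also compared between barcodes within a library, where scaling between libraries does not enter. Barcodes with at least 3 different endothelial, fibroblast or macrophage markers (and fewer than 3 of each other list) were set against ungated barcodes with fewer than 2 of every list, and the 25% of ungated barcodes richest in cardiomyocyte marker UMIs against the poorest 25%. Held-out check markers showed how weakly this separated the barcodes. Endothelial check markers were 1.09 to 1.25-fold higher in endothelial barcodes, fibroblast check markers 1.31 to 1.92-fold higher in fibroblast barcodes and cardiomyocyte check markers 1.05 to 1.21-fold higher in cardiomyocyte-marker-rich barcodes. Macrophage barcodes numbered 51 (sham) and 28 (I/R) in young and 293 and 546 in aged ventricle, and their own check markers were 4.68, 2.22 and 1.45-fold higher in 3 libraries and had no UMI in the 28 barcodes of young I/R. Cardiomyocyte check markers summed to 12398 to 16638 CPM in macrophage barcodes and to 14247 to 16206 CPM in ungated ones. Doublets were neither called nor removed, and barcodes were not screened for holding a cell, so a barcode may hold more than 1 cell or none. These classes are therefore described by their markers and not as cell types.

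No member was at least 1.5-fold higher in all 4 libraries in any of these classes, 0 of 10 in each. No check marker reached this limit in all 4 libraries in its own class either. These counts therefore cannot show whether a member is particular to a class. The share of the 4513 genes with at least 20 CPM in every library that did so was 0.00% for endothelial, 0.0665% for fibroblast, 0.0665% for macrophage and 0.00% for cardiomyocyte-marker-rich barcodes. Of the 10 genes, 6 had 20 CPM in every library. Fkbp5 was lower in marker-rich than in marker-poor barcodes of young sham, 0.53-fold, and at 0.88, 0.77 and 0.93-fold in the other 3 libraries, where each interval included equality. Zbtb16 was at 0.59 (sham) and 0.70-fold (I/R) in young and 0.78 and 0.98-fold in aged ventricle, with intervals below equality in all but aged I/R. Sgk1 went the other way in young sham, at 1.36-fold. Errfi1 in young sham (0.71-fold) and Nr3c1 in aged I/R (0.85-fold) were lower, and these intervals also excluded equality. In fibroblast barcodes the Fkbp5 ratio over ungated barcodes rested on 6, 28 and 19 UMIs in young sham, young I/R and aged sham, with intervals that included equality, and was 1.18-fold (log2 0.24, 0.05 to 0.43) on 291 UMIs in aged I/R. There Cebpd (1.27-fold) and Nr3c1 (0.86-fold) were also off equality. In endothelial barcodes Zbtb16 in aged sham (1.32-fold) and Nr3c1 in aged I/R (0.92-fold) were. In macrophage barcodes Fkbp5 in aged sham (3.14-fold, 5 UMIs) and Klf15 in aged I/R (0.30-fold, 4 UMIs) were. The ratios off equality were picked from those of all 10 genes in every class and library. Among so many intervals, some exclude equality by counting error alone. The share of all genes with such an interval was not counted, so these ratios do not show that a member is particular to a class.

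**Figure D5:**
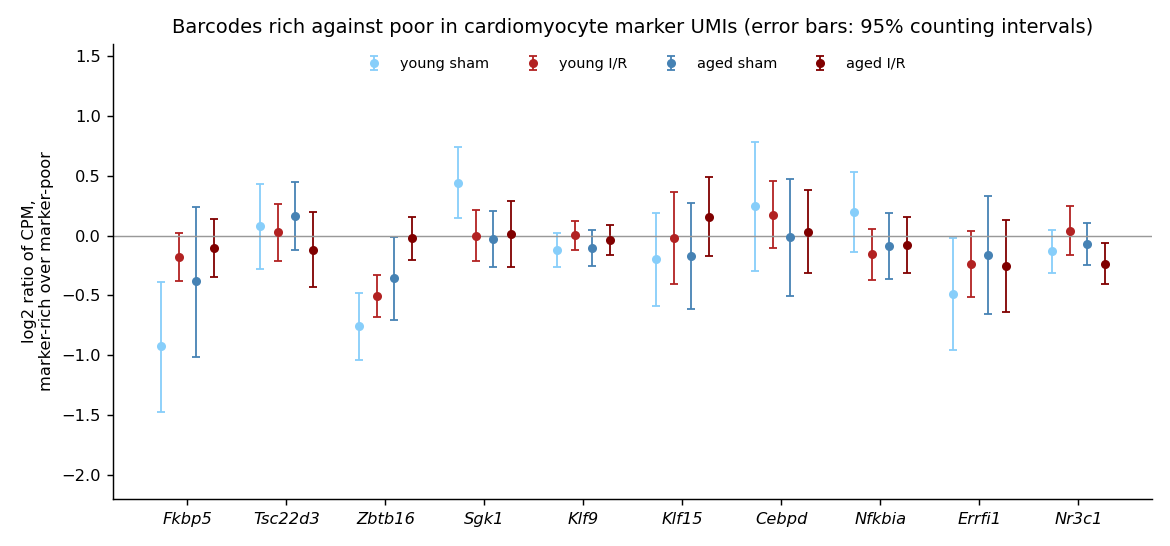
Log2 ratio of CPM between the 25% of ungated barcodes richest and the 25% poorest in cardiomyocyte marker UMIs, for the 10 genes in the 4 libraries, with 95% counting intervals. Fkbp5 and Zbtb16 in young sham and Zbtb16 in young I/R lie lowest (0.53, 0.59 and 0.70-fold), and most other intervals include 0.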

How the data were processed

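The authors prepared left ventricle suspensions on the 10x Chromium system and made the deposited matrices with Cell Ranger 6.0.2 on the mm10 mouse genome. The deposited values are raw UMI counts for every gene in every barcode. Whether introns or strand entered the counting is not given in the sources used here. UMIs were summed over all deposited barcodes of a library and divided by its total (CPM). Ratios needed at least 20 UMIs over both libraries, and a gene was called at 2-fold. Intervals (95%) are exact Poisson for a level and exact conditional binomial for a ratio, and normal on the log scale for a difference of ratios. With 1 library per condition no test was made. The scripts were tested on simulated data. Gene positions are those of GENCODE vM21 on GRCm38.

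The 10 genes and all lists were chosen with earlier results of these data known. Named were every member in every comparison, Nr3c2 and Hsd11b1, and from each other list the 2 highest and 2 lowest log2 ratios per comparison among genes with at least 50 UMIs. Mt1, Ddit4, Mstn, Csf3, Map3k6, Tat, Pck1 and G6pc are named beyond this rule. The rule named Cdkn1a in aged over young sham only, and its other values are given beyond it. Genes whose I/R ratio had opposite signs between ages were sought only among the genes that the rule named in any comparison. Alternatives were gene-wise scaling, totals without Gm42418, Malat1 and mitochondrial genes, barcodes with at least 200 detected genes, no shared barcodes, a 1.5-fold limit and other gate settings. Python 3.11.15 with numpy 2.4.6, scipy 1.17.1, pandas 2.3.3 and matplotlib 3.10.9 was used.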

Additional observations from a re-analysis of the deposited data

Results flagged for a closer look

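The 14 results here are listed because the I/R over sham ratio lay above 0 in one age and below 0 in the other, each beyond counting error. Only the members and the genes named by the rule above were searched, so other genes of the lists may also qualify. Over all genes with enough UMIs, 23.6% lay above 0 in young and 57.2% in aged ventricle. A ratio below 0 in young and above 0 in aged ventricle was thus common, and the share of all genes with opposite directions was not counted. The differences, aged minus young on the log2 scale, were not tested, since there was 1 library per condition. Among the members, Tsc22d3 (-1.06) and Sgk1 (-0.86) went from above 0 in young to below 0 in aged ventricle, and Klf15 (0.83) went the other way. Under gene-wise scaling Klf15 was above 0 in both ages (0.27 and 0.53).

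Beyond the members, Slc7a5 (-1.91), Gadd45a (-0.86) and Icam1 (-0.78) were above 0 in young and below 0 in aged ventricle. The coregulators Ncoa2 (1.68), Ncoa1 (1.66), Ppargc1a (1.41), Ncor1 (1.40), Med1 (1.39) and Nrip1 (1.23) were below 0 in young and above 0 in aged ventricle, as were the macrophage receptors Cd163 (1.59) and Mertk (1.10). Under gene-wise scaling Cd163 was above 0 in both ages (0.058 and 1.081). The other 12 kept their opposite directions, with Mertk in young (-0.14) and Nrip1 in aged ventricle (0.08) near 0. Only the signs were compared on this scaling, not the intervals.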

How the results depend on the processing

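No paired analysis was possible because each condition had 1 library, and for the same reason no library could be left out. Leaving out shared barcodes, keeping barcodes with at least 200 detected genes and changing the gates kept every summary value they were run on. For the gates these values were counts of 0, at a limit that no check marker reached in every library under the main gates. Kept means a count within 1.5 times, or a median between the medians of the members' lower and upper counting bounds, which are not a spread over members. Dropping the UMI minimum was run on the member counts only and could not change them, since every member was far above it. Of the 40 member ratios, leaving out shared barcodes changed the sign of 0 and the 200-gene limit of 1 (Nr3c1 in aged I/R, 0.00 to -0.02). Beyond counting error, 11 of the 40 ratios moved at the 200-gene limit, 31 under gene-wise scaling and 22 without the transcripts named next. Gene-wise scaling changed the sign of 5 member ratios and gave 6 instead of 3 members 2-fold higher in young I/R, with member medians of 1.30 and 0.40 in young and aged I/R, -0.084 in aged over young sham and -0.57 in aged over young I/R. Without Gm42418, Malat1 and mitochondrial genes in the total, 4 ratios changed sign, 5 members were 2-fold higher in young I/R, and the medians were 0.97, 0.41 and, in aged over young I/R, -0.32. The share of all genes past 2-fold was not counted on this total. Over the other lists together, the lower calls in young I/R were 5, against 1 gene-wise and 2 without these transcripts. Over all genes the lower share there was 27.0% and, gene-wise, 13.2%. For aged over young sham 5 higher and 1 lower became 8 and 0 gene-wise. The shares of all genes there went from 3.48% and 7.21% to 4.73% and 5.23%. For aged over young I/R 7 higher became 0 gene-wise and 1 without these transcripts, and 10 lower became 22 gene-wise. There the shares of all genes went from 21.3% and 1.58% to 10.7% and 4.38% gene-wise. At a 1.5-fold limit the members called were 6 higher and 1 lower in young I/R, 5 higher in aged I/R, 1 lower in aged over young sham and 1 higher in aged over young I/R. The share of all genes past 1.5-fold was not counted, so these counts cannot be set against a background. Depth limits genes with few UMIs, such as Il1r2, Mstn and Csf3, while each member had at least 283 UMIs in every library, and the spread between animals could not be measured.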
